A study of Mus musculus with 32 samples.

Results

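Collagen genes outside the collagen VI family were described across quadriceps muscle of wild-type mice and of Col6a2-/- mice, which lack the α2 chain gene of collagen VI. The members are all genes whose symbol is Col, digits, a and digits, without those that start with Col6a, which gave 38 of the 53801 genes listed in every library. The series concerns collagen VI and the control of TGFβ in skeletal muscle, and it holds 32 libraries, each from the quadriceps of 1 mouse. The groups are wild type (WT) and homozygous Col6a2 tm1(KOMP)Vlcg (Col6a2-/-) mice at 5 and 25 weeks of age, female and male, with 4 mice in each of the 8 groups. Per the labels, the allele came on C57BL/6N, was backcrossed for 5 generations to C57BL/6J, and both genotypes came from heterozygous breeders. The labels give all mice as untreated. Muscle was taken as cryosections, so each library holds RNA of muscle fibres together with that of every other cell in the section.

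Collagens are trimers of α chains wound into a triple helix and secreted into the extracellular matrix. Fibrillar collagens, chiefly types I and III in muscle, form the fibres of the endomysium, perimysium and tendon, and type V starts and limits the growth of those fibrils. Type IV builds the network of the basement membrane around each fibre and vessel, type VIII forms short-chain networks, FACIT collagens (fibril-associated collagens with interrupted triple helices) bind to the surface of fibrils, multiplexins sit at the basement membrane, and other types are anchored in cell membranes.

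Levels are the authors' TPM (a level scaled for gene length and for the total of the library). Tests were made with limma on log2(TPM + 1), in 1 model over all 32 libraries and all 12817 genes that reached 1 TPM in 4 or more libraries. A log2 change below is on that scale, which understates the change of low genes, and a gene is said to be called when its Benjamini-Hochberg adjusted p over all tested genes is under 0.05. Of the 38 members, 25 passed the TPM minimum and were tested, and 13 did not. A member that passed could have done so through the group in which it was high: Col19a1 reached 1 TPM in the 8 Col6a2-/- libraries at 5 weeks and in no other, and Col2a1, Col26a1 and Col28a1 reached it at 5 weeks only. Col28a1 did so in 3 WT and 7 Col6a2-/- libraries, so it too passed only with its Col6a2-/- libraries.

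The targeted gene went with the labels. Col6a2 stood between 19.9 and 51.2 TPM in the 8 WT libraries at 5 weeks and at no more than 0.171 TPM in the 8 Col6a2-/- libraries. At 25 weeks it stood between 6.60 and 13.6 TPM in WT and at no more than 0.0345 TPM in Col6a2-/- (two-sided exact permutation test, p = 0.000155 at each age, the smallest the 12870 splits allow). Depth inferred from coverage and FPKM ran from 6.78 to 13.7 gigabases per library, and 10399 to 12877 genes had at least 1 TPM. Mitochondrial genes took 31.9 to 46.9% of all TPM. Muscle fibre markers were the most abundant of the marker lists, with Acta1, skeletal α-actin, at 4534 to 9450 TPM. Within the 5-week Col6a2-/- females the summed TPM of all 38 members ranged from 566 in female 4 to 2309 in female 2. Without these 2 libraries 12 members were called higher at 5 weeks, against 11 with them (below).

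Fibrillar genes made up most of the collagen RNA. Averaged over the 32 libraries, Col3a1 (288.5 TPM), Col1a2 (188 TPM) and Col1a1 (118 TPM) came first, followed by Col4a1 (53.3 TPM), Col5a2 (33.1 TPM) and Col4a2 (24.6 TPM). Col15a1 (16.9 TPM), Col5a1 (13.0 TPM), Col5a3 (11.8 TPM), Col12a1 (10.9 TPM) and Col14a1 (10.2 TPM) formed a middle tier. Col8a1 (6.48 TPM), Col16a1 (4.59 TPM), Col18a1 (3.80 TPM), Col11a2 (3.54 TPM), Col11a1 (3.35 TPM), Col22a1 (2.85 TPM), Col4a5 (2.08 TPM), Col19a1 (1.86 TPM) and Col8a2 (1.82 TPM) followed. The tested members with the lowest means were Col24a1 (0.960 TPM), Col28a1 (0.792 TPM), Col20a1 (0.776 TPM), Col26a1 (0.753 TPM) and Col2a1 (0.528 TPM). Neighbours in this order were not tested against each other, and the order pools groups that differ. At 25 weeks the mean of Col4a1 (23.1 TPM in WT and 28.2 TPM in Col6a2-/-) lay above that of Col1a1 (19.0 and 24.4 TPM). In WT at 5 weeks Col1a2 (326 TPM) and Col3a1 (324 TPM) were level within their spread. The place of Col19a1 comes from the 5-week Col6a2-/- group. In WT muscle at 5 weeks the 11 fibrillar genes held a median of 84.0% of the collagen TPM and the 6 type IV genes 8.67%. At 25 weeks these shares in WT were 66.5% and 21.0%.

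Summed by type, collagen RNA had a lower median at 25 than at 5 weeks in each of the 6 types plotted. The fibrillar sum ranged from 463 to 1831 TPM in WT at 5 weeks, with a median of 845, and from 444 to 2044 TPM in Col6a2-/-, with a median of 1226. At 25 weeks it ranged from 60.8 to 206 TPM in WT (median 125) and from 171 to 338 TPM in Col6a2-/- (median 217). The genotypes overlapped at both ages, while no 25-week library reached the lowest 5-week one of either genotype. The hexagonal network sum at 5 weeks ran from 3.77 to 10.6 TPM in WT (median 5.55) and from 7.41 to 27.9 TPM in Col6a2-/- (median 20.5), and only female 4 of the Col6a2-/- group lay within the WT range. These sums are descriptions without a test.

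**Figure D1:**
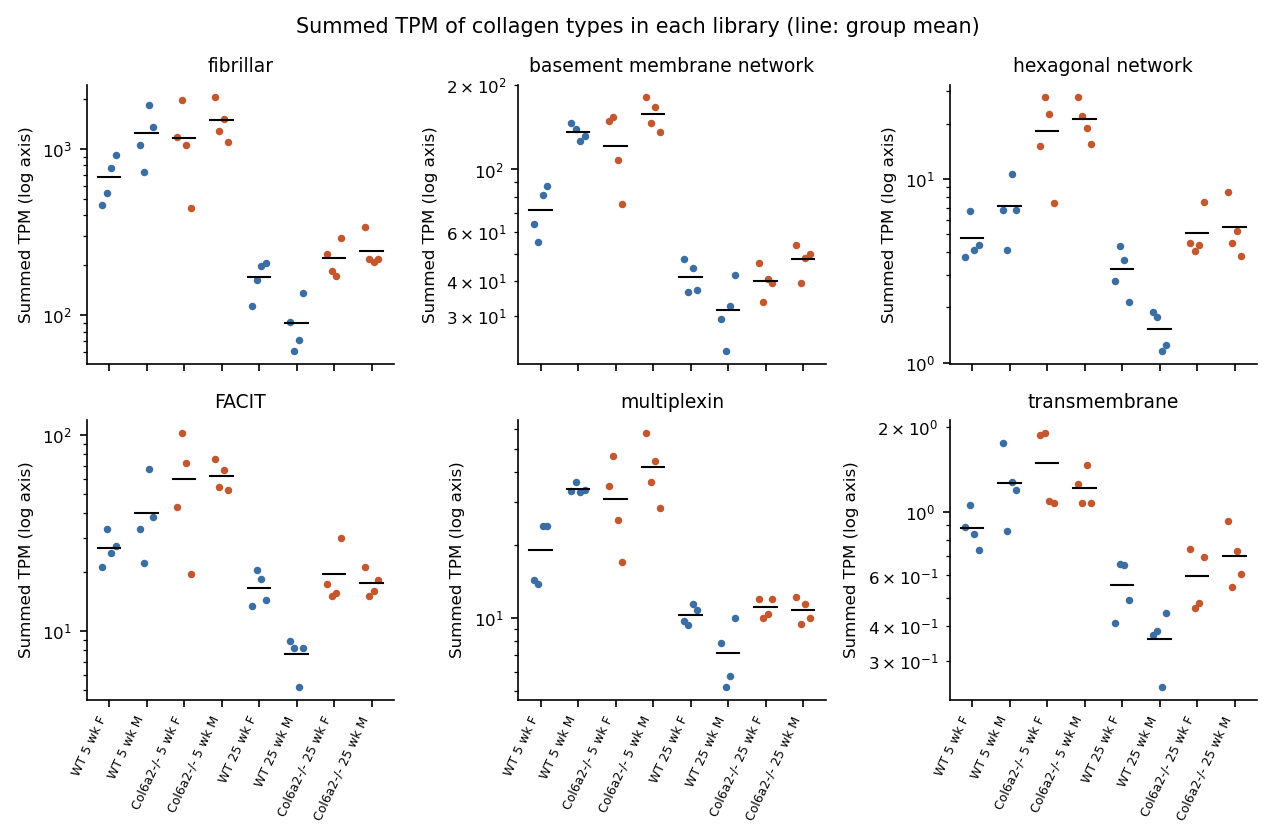
Summed TPM (log axis) of 6 types of collagen genes in each of the 32 libraries by group; points are libraries and lines are group means. The fibrillar sums at 25 weeks lie below those at 5 weeks, and the hexagonal network sum of 5-week Col6a2-/- muscle has a median of 20.5 TPM against 5.55 in WT.

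At 5 weeks, loss of Col6a2 was accompanied by higher RNA of 11 of the 25 tested collagen genes and by lower RNA of none, against 23.2% of all tested genes called higher and 2.14% called lower. The median log2 change of the members was 0.40, against 0.15 for all tested genes. The called members were Col19a1, Col8a1, Col3a1, Col5a2, Col14a1, Col5a1, Col16a1, Col4a1, Col4a2, Col18a1 and Col28a1. Neither chain of type I collagen was among them. Col19a1 and Col28a1 passed the TPM minimum only with their Col6a2-/- libraries, which limits the comparison of these counts with all genes. Relative to the median of all tested genes, 18 members lay above and 7 below. Of 3 other scalings of the libraries, size factors from the median of ratios moved the median of all genes by -0.16 on the log2 scale and left 47.9% of all calls in the higher direction instead of 91.6%. Quantile normalization moved the median by -0.17 and left 45.8% higher, and a constant sum of genes other than mitochondrial and Rn7s moved it by -0.0070. The 7 members Col3a1, Col5a1, Col5a2, Col4a2, Col8a1, Col14a1 and Col19a1 were called higher under each of these 3 scalings too. The share of all tested genes called higher under all 3 was not counted, so the 7 show only which calls were kept. Under quantile normalization Col2a1 (-0.49, adjusted p = 0.0226) and Col4a5 (-0.33, adjusted p = 0.0242) were called lower.

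**Figure D2:**
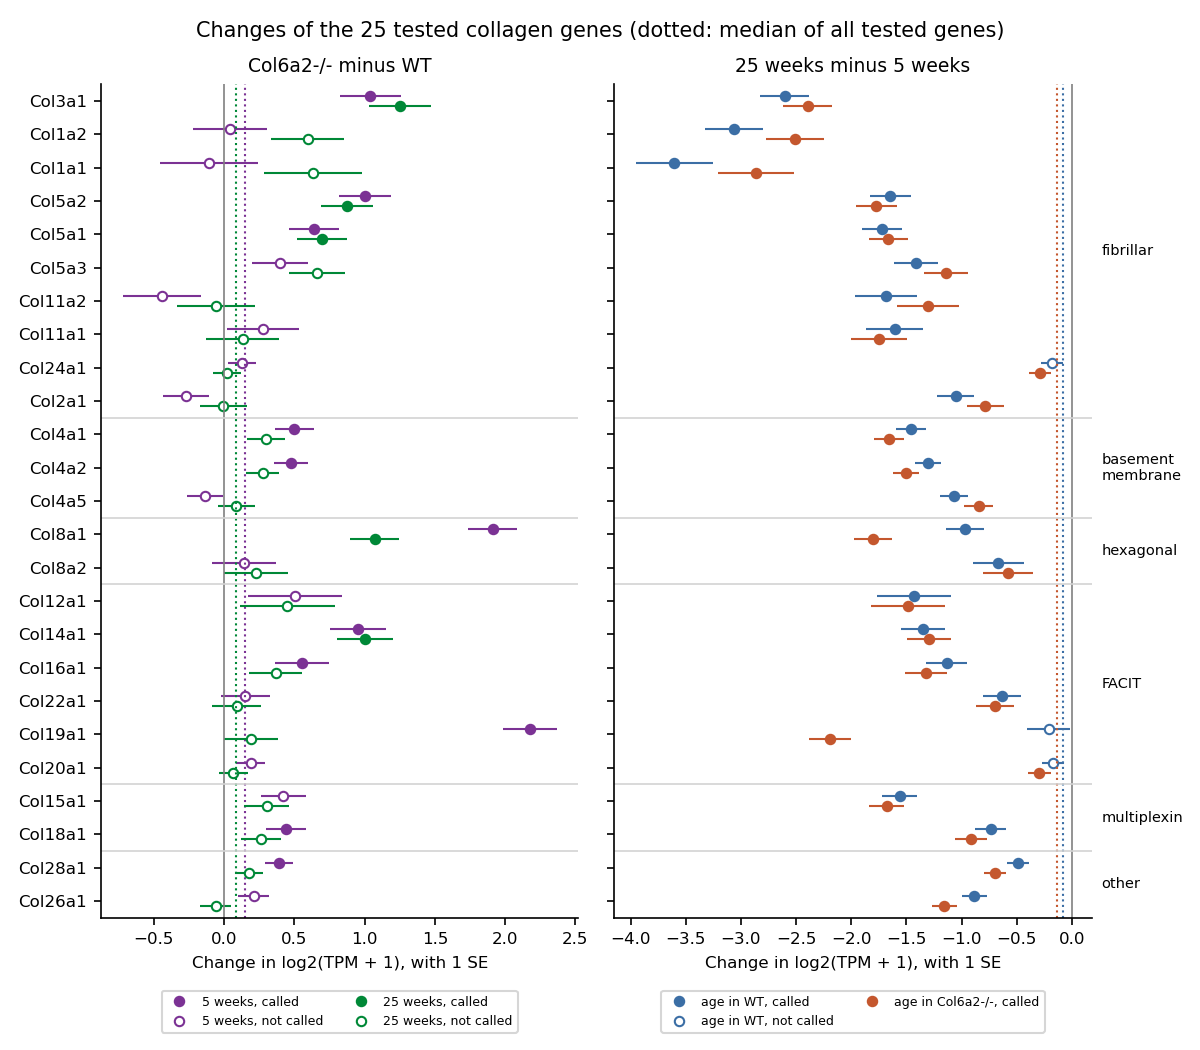
Change in log2(TPM + 1) with 1 SE of the 25 tested collagen genes, grouped by type; left, Col6a2-/- minus WT at 5 and at 25 weeks, right, 25 minus 5 weeks in each genotype. Filled points are called by limma, open points are not, and dotted lines mark the median of all tested genes; Col19a1 and Col8a1 have the largest genotype changes at 5 weeks, and every point on the right lies below 0.

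Type III collagen, which forms thin reticular fibres and joins type I in mixed fibrils, showed the largest fibrillar change, level within its SE with that of Col5a2. Without 5-week WT male 3 and Col6a2-/- female 2 the log2 change was 0.91 for Col3a1 and 0.93 for Col5a2. Col3a1 ranged from 151 to 519.7 TPM in WT at 5 weeks, with a median of 310.0, and from 210.0 to 957 TPM in Col6a2-/-, with a median of 672. Each of the 8 Col6a2-/- libraries exceeded the WT mean of its own sex, although the ranges overlapped. The log2 change was 1.04 (SE 0.220, adjusted p = 0.00106), or 0.90 above the median of all tested genes. Col3a1 contains the listed gene Gm47302 on the same strand (up to 1277 TPM), so reads at its start may have been split between them.

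Of the 3 type V genes, 2 were called higher at 5 weeks. Col5a2 ranged from 17.1 to 58.9 TPM (median 31.5) in WT and from 26.8 to 96.9 TPM (median 69.3) in Col6a2-/-, a log2 change of 1.0 (SE 0.186, adjusted p = 0.000258). Col5a2 lies 24.6 kb from Col3a1 on chromosome 1, on the opposite strand. Col5a1 ranged from 9.11 to 23.9 TPM (median 15.7) in WT and from 10.4 to 43.9 TPM (median 24.6) in Col6a2-/-, a log2 change of 0.64 (SE 0.177, adjusted p = 0.00938). That call was lost without the TPM minimum together with size factors (adjusted p = 0.0675). The third chain, Col5a3, had a log2 change of 0.40 and was not called (SE 0.200, adjusted p = 0.143).

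Type I collagen, the main load-bearing fibre, did not differ between genotypes at 5 weeks beyond the spread between mice. Col1a1 ranged from 82.2 to 523 TPM (median 192) in WT and from 65.4 to 419 TPM (median 171) in Col6a2-/-. Its log2 change was -0.11 (SE 0.348, adjusted p = 0.839), and that of Col1a2 was 0.04 (SE 0.262, adjusted p = 0.927), with a negative sign for Col1a2 under size factors and quantile normalization. The other fibrillar genes tested, Col11a1, Col11a2, Col24a1 and Col2a1, had log2 changes from -0.44 to 0.27 and were not called. Types II and XI are best known from cartilage, where type XI has the part that type V has elsewhere.

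The sum of tenocyte markers differed between libraries. The 5 tenocyte markers summed to 319 TPM in 5-week Col6a2-/- female 2 and to 247 TPM in 5-week WT male 3, against medians of 118 and 101 TPM in the 8 libraries of their genotype. These libraries held 288 and 523 TPM of Col1a1, 13.2 and 17.4 TPM of Col11a2, and 33.0 and 34.5 TPM of Col12a1. Other libraries were higher for some of these genes: 5-week Col6a2-/- male 1, with a tenocyte sum of 221 TPM, held 419 TPM of Col1a1, and female 3, with 146 TPM, held 41.8 TPM of Col12a1. The part of tendon RNA in these levels was not tested. No tenocyte marker of 5 was called between genotypes at either age. In 25-week males none was called either, but the sums did not overlap. They ran from 17.2 to 59.6 TPM in WT and from 61.6 to 85.3 TPM in Col6a2-/-. With 5-week Col6a2-/- female 2 and WT male 3 left out, 9 collagen genes were called higher at 5 weeks, and Col4a1 and Col18a1 were not.

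Among network collagens, the gene for the α1 chain of type VIII, found beneath vessel endothelium and in other short-chain networks, changed most. Col8a1 ranged from 2.33 to 5.38 TPM in WT at 5 weeks (median 3.36) and from 6.52 to 24.9 TPM in Col6a2-/- (median 17.4). All 8 Col6a2-/- libraries lay above all 8 WT libraries, which held for 1.18% of all tested genes in that direction. The log2 change was 1.91 (SE 0.173, adjusted p = 4.85e-09), and the mean TPM was 4.64-fold higher. Its partner chain Col8a2 ranged from 0.860 to 5.27 TPM in WT and from 0.838 to 5.50 TPM in Col6a2-/- and was not called (log2 change 0.14, SE 0.228, adjusted p = 0.67).

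The genes of the α1 and α2 chains of type IV collagen, found in nearly all basement membranes, rose to a lesser degree. Col4a1 ranged from 33.2 to 97.7 TPM (median 70.7) in WT and from 48.4 to 120 TPM (median 100.4) in Col6a2-/-, with a log2 change of 0.50 (SE 0.137, adjusted p = 0.00897). Col4a2 ranged from 17.8 to 40.8 TPM (median 31.6) in WT and from 24.4 to 55.2 TPM (median 43.9) in Col6a2-/-, with a log2 change of 0.48 (SE 0.118, adjusted p = 0.00443), lost without the TPM minimum together with size factors (adjusted p = 0.0619). The genotypes overlapped for both genes. The call of Col4a1 was lost with size factors (adjusted p = 0.0557) and without the 2 libraries of highest tenocyte sum (adjusted p = 0.0517). It was also lost without the TPM minimum together with size factors, with an adjusted p of up to 0.107. In the same comparison 3 of 5 endothelial markers (Pecam1, Cdh5 and Tie1) were called higher, against the 23.2% of all tested genes. Endothelial markers summed to between 48.3 and 88.2 TPM in WT and between 53.6 and 99.1 TPM in Col6a2-/-, and their part in the result was not tested. The third tested chain, Col4a5, had a log2 change of -0.14 (SE 0.130, adjusted p = 0.443).

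**Figure D3:**
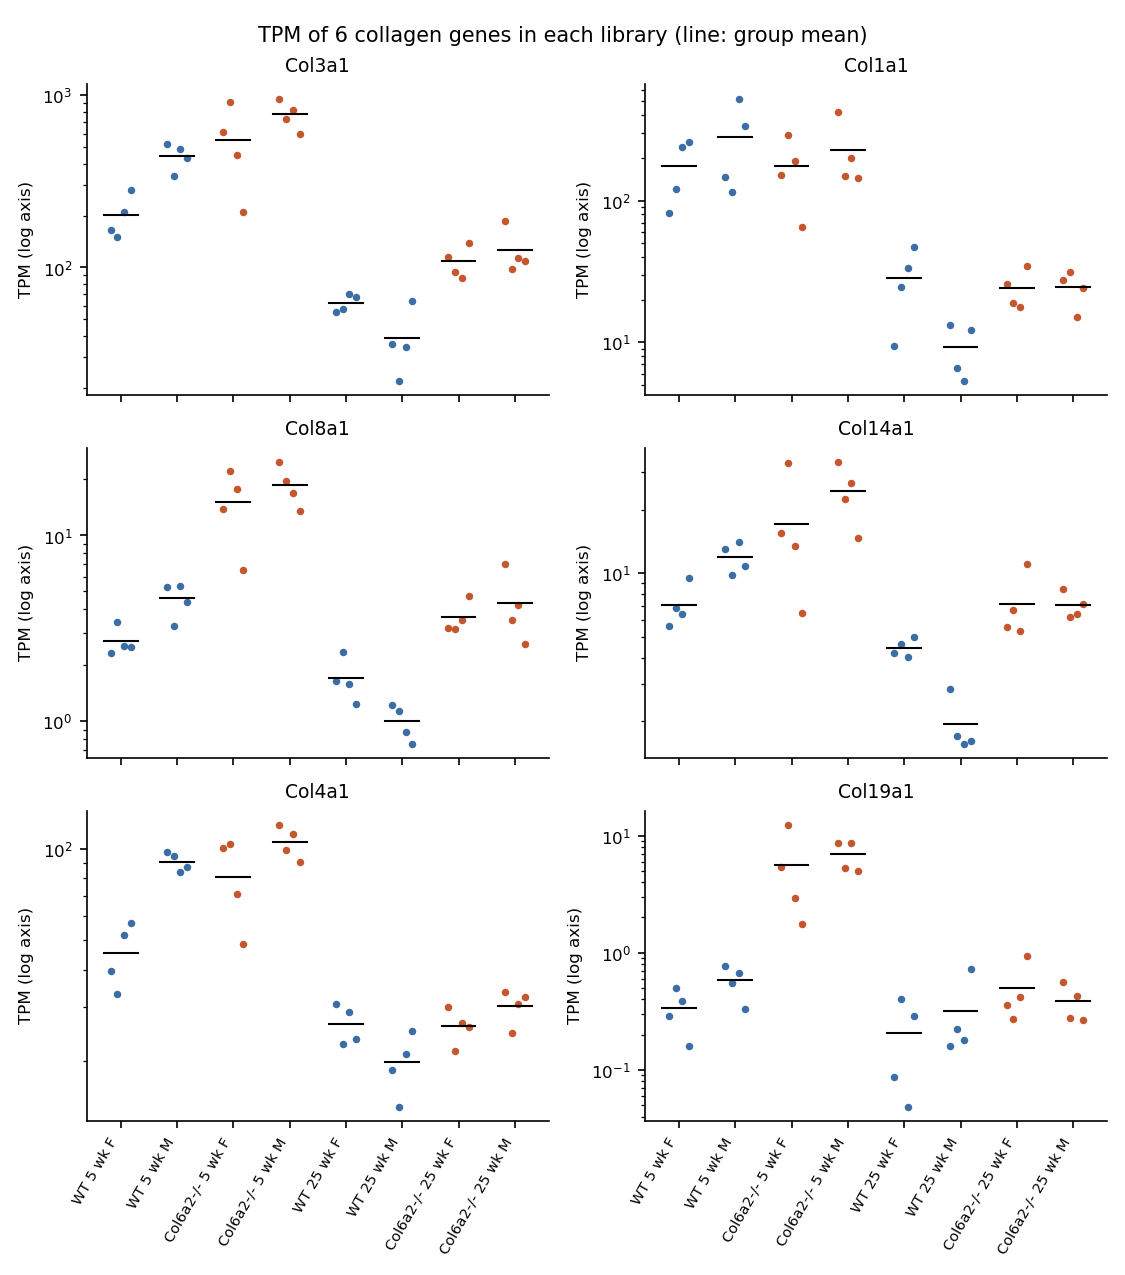
TPM (log axis) of Col3a1, Col1a1, Col8a1, Col14a1, Col4a1 and Col19a1 in each of the 32 libraries by group; points are libraries and lines are group means. Col8a1 and Col19a1 separate the genotypes without overlap at 5 weeks, and Col19a1 at 25 weeks lies below 1 TPM in both genotypes.

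Among the FACIT collagens, Col19a1 rose most of all members. This gene is expressed in the myotome and differentiating muscle of mouse embryos, and its product is a minor component of basement membrane zones. It ranged from 0.159 to 0.768 TPM in the 8 WT libraries at 5 weeks (median 0.444) and from 1.78 to 12.3 TPM in the 8 Col6a2-/- libraries (median 5.36). The genotypes did not overlap, and the log2 change was 2.17 (SE 0.193, adjusted p = 3.42e-09), with a 13.7-fold higher mean TPM. Col19a1 passed the TPM minimum through this group alone, so that its being tested depended on its being high there. Col9a1, which lies 9.21 kb from it on chromosome 1, stood between 0 and 0.0444 TPM in Col6a2-/- and between 0.0152 and 0.104 TPM in WT.

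Col14a1, whose product binds the surface of fibrils in muscle connective tissue and tendon, ranged from 5.62 to 14.0 TPM in WT at 5 weeks (median 9.68) and from 6.50 to 33.6 TPM in Col6a2-/- (median 19.0). Its log2 change was 0.95 (SE 0.199, adjusted p = 0.000974), and 7 of 8 Col6a2-/- libraries exceeded the WT mean of their sex. Col16a1 ranged from 3.13 to 10.8 TPM in WT and from 2.96 to 14.0 TPM in Col6a2-/-, a log2 change of 0.55 (SE 0.189, adjusted p = 0.0321). The call was lost with size factors, with quantile normalization, without the TPM minimum, and without WT female 1, WT male 2, or Col6a2-/- females 2 or 3 or males 1 or 3, with an adjusted p of up to 0.192. Col12a1, found in tendon and muscle fascia, ranged from 5.22 to 34.5 TPM in WT and from 4.45 to 41.8 TPM in Col6a2-/- and was not called (log2 change 0.50, SE 0.336, adjusted p = 0.269). Col22a1, a component of the junction of muscle and tendon, had a log2 change of 0.15 and Col20a1 one of 0.19, and neither was called.

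Of the multiplexins, whose C-terminal parts can be released as endostatin-like fragments, Col18a1 was called and Col15a1 was not. Col18a1 ranged from 2.28 to 6.04 TPM in WT and from 3.20 to 9.17 TPM in Col6a2-/-, a log2 change of 0.44 (SE 0.143, adjusted p = 0.0253). That call was lost with size factors, with quantile normalization, without the TPM minimum, and without WT female 2, or Col6a2-/- females 1 or 2 or males 1 or 3, with an adjusted p of up to 0.175. Col18a1 lies 0.429 Mb from Col6a2 on chromosome 10. Col15a1, the more abundant gene, which is found at the basement membranes of muscle fibres and capillaries, ranged from 11.4 to 31.5 TPM in WT and from 13.9 to 49.4 TPM in Col6a2-/-. Its log2 change was 0.42 (SE 0.160, adjusted p = 0.0531).

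Of the remaining types, Col28a1, known from peripheral nerve, rose from a median of 0.911 TPM in WT to 1.64 TPM in Col6a2-/- (log2 change 0.39, SE 0.0998, adjusted p = 0.00529). The call was lost with quantile normalization (adjusted p = 0.0654). Libraries of the genotypes overlapped, from 0.409 to 1.56 TPM and from 0.751 to 2.03 TPM. Col28a1 reached 1 TPM in 3 WT and 7 Col6a2-/- libraries, so its being tested depended on the group in which it was high. Schwann cell markers, of which 4 of 5 were tested, were not called at this age. Col26a1 ranged from 0.505 to 2.17 TPM in WT and from 0.590 to 2.70 TPM in Col6a2-/- and was not called over both sexes (log2 change 0.21, SE 0.111, adjusted p = 0.159).

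The bases in front of the gene starts are shown for 4 members whose levels turned most on genotype at 5 weeks, or, for Col10a1, described below, were above 0 there alone. They come from RefSeq (build GRCm38.p6), which matched 29 of the 38 members, and are written 5′ to 3′ on the strand of the gene, without bases of annotated exons. Capitals mark matches to TATAAA (the TATA box), or to CAGACA (a core of Smad-binding CAGA boxes) or its reverse complement TGTCTG.
Col3a1, chr1:45311288-45311537, plus strand: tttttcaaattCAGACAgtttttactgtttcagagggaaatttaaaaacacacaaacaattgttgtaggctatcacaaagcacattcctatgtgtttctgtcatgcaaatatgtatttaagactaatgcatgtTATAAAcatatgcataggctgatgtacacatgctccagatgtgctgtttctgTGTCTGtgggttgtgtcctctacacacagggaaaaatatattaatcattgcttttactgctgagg
Col8a1, chr16:57754738-57754987, minus strand: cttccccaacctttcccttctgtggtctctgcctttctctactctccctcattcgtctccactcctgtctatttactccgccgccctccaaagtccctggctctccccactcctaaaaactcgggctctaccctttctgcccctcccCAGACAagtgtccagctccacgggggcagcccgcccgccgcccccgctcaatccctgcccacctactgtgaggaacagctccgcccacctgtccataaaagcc
Col19a1, chr1:24587473-24587687, minus strand: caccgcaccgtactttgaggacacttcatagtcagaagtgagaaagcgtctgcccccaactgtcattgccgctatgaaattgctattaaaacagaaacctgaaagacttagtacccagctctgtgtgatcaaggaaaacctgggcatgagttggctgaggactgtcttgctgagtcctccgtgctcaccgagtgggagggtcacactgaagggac
Col10a1, chr10:34389731-34389980, plus strand: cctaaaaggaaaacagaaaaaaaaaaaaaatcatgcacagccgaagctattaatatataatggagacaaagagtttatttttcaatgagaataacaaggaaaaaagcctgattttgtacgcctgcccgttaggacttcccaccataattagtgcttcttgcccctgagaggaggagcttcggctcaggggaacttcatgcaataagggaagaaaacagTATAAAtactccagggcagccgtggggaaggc

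TATAAA begins 117 bases before the start of Col3a1 and 32 bases before that of Col10a1, and occurs on either strand in 12.4% of the 32851 mouse windows of 250 bases before a start. CAGACA begins 239 bases before the start of Col3a1 and 103 bases before that of Col8a1, and its reverse complement begins 65 bases before that of Col3a1. CAGACA occurs in 17.1% of all windows on either strand. CCAAT, also searched on both strands, is in none of the 4 windows and in 33.8% of all. The motifs share no bases with each other. Among the 31 windows of the 29 matched members, 9 hold CAGACA, 5 hold TATAAA and 12 hold CCAAT. These letter matches describe the windows only.

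At 25 weeks, 5 of the 25 tested members were called higher in Col6a2-/- and none lower, against 4.47% of all tested genes called higher and 0.234% called lower. They were Col3a1, Col5a2, Col5a1, Col14a1 and Col8a1, which were also called at 5 weeks. The median log2 change was 0.27 for the members and 0.08 for all tested genes. These 5 members were also called under each of the 3 other scalings, which moved the median of all genes by up to -0.10. The share of all tested genes called under all 3 was not counted. The split of all calls at this age was 95.0% higher, and 51.4% with size factors.

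Col3a1 ranged from 22.0 to 69.8 TPM in WT at 25 weeks (median 56.1) and from 87.4 to 186 TPM in Col6a2-/- (median 111). All 8 Col6a2-/- libraries lay above all 8 WT libraries, as they did for Col14a1 and Col8a1 and for 0.663% of all tested genes. The log2 change of Col3a1 was 1.25 (SE 0.220, adjusted p = 0.00125). Col14a1 ranged from 1.56 to 4.98 TPM in WT (median 3.42) and from 5.33 to 11.0 TPM in Col6a2-/- (median 6.60), a log2 change of 1.0 (SE 0.199, adjusted p = 0.00361).

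Col8a1 ranged from 0.757 to 2.36 TPM in WT at 25 weeks (median 1.23) and from 2.62 to 7.03 TPM in Col6a2-/- (median 3.51), a log2 change of 1.07 (SE 0.173, adjusted p = 0.000613). Col5a2 ranged from 5.85 to 14.6 TPM in WT and from 14.1 to 26.6 TPM in Col6a2-/-, a log2 change of 0.88 (SE 0.186, adjusted p = 0.00653) with a narrow overlap. Col5a1 ranged from 1.96 to 5.97 TPM in WT and from 4.89 to 8.64 TPM in Col6a2-/-, a log2 change of 0.70 (SE 0.177, adjusted p = 0.0202). The call of Col5a1 was lost without the TPM minimum, without WT male 2 or without Col6a2-/- female 1, female 4 or male 1, with an adjusted p of up to 0.0636. Col5a3 came close to the threshold with a log2 change of 0.66 (SE 0.200, adjusted p = 0.0517).

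Type I collagen was not called at 25 weeks, with log2 changes of 0.63 for Col1a1 (SE 0.348, adjusted p = 0.323) and 0.59 for Col1a2 (SE 0.262, adjusted p = 0.206). Col1a1 ranged from 5.37 to 47.1 TPM in WT and from 15.2 to 34.3 TPM in Col6a2-/-, so that the WT mice were both the lowest and the highest. These ranges pool the sexes. In males Col1a1 ran from 5.37 to 13.2 TPM in WT and from 15.2 to 31.1 TPM in Col6a2-/-. Its log2 change was 1.34 in males (limma, adjusted p = 0.124) and -0.07 in females. That of Col1a2 was 1.21 in males (limma, adjusted p = 0.0668) and -0.02 in females. The difference between the sexes was not called for either gene. The type IV chains Col4a1 and Col4a2 had log2 changes of 0.30 and 0.27 and were not called. Nor were Col15a1 and Col18a1, at 0.30 and 0.26.

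The genotype change itself differed between the ages for 1 of the 25 members, Col19a1, against 0.421% of all tested genes called in that direction. Col19a1 passed the TPM minimum through the 5-week Col6a2-/- group alone. Its being tested thus depended on its being high there, which limits the comparison with all genes. The difference of the log2 changes, 25 minus 5 weeks, was -1.98 (SE 0.274, adjusted p = 5.39e-05). At 25 weeks Col19a1 ranged from 0.0484 to 0.721 TPM in WT and from 0.265 to 0.946 TPM in Col6a2-/-, and its log2 change was 0.19 (SE 0.193, adjusted p = 0.63). For Col8a1 the difference was -0.84 (SE 0.245, unadjusted p = 0.00186, adjusted p = 0.165) and was not called. Without 5-week Col6a2-/- female 4 the count of members called was 2. For Col3a1, Col5a1, Col5a2 and Col14a1 it lay between -0.13 and 0.21, with adjusted p of 0.965 or more.

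Split by sex, 10 members were called higher in 5-week females (12.3% of all tested genes) and 2, Col19a1 and Col8a1, in 5-week males (4.55%). The 10 were these 2 with Col3a1, Col5a2, Col14a1, Col4a1, Col4a2, Col18a1, Col26a1 and Col28a1. Of the 10, Col19a1 and Col28a1 passed the TPM minimum only with their Col6a2-/- libraries. The count in females rested on single mice: it was 3 without Col6a2-/- female 2, 5 without female 1 and 16 without female 4. In males it was 4 without Col6a2-/- female 2 or female 4, which enter through the shared spread. Col26a1, first described in testis and ovary, was called in no other genotype comparison than that in 5-week females, with a log2 change of 0.55 (SE 0.156, adjusted p = 0.0221). That call was lost with a pseudocount of 0.1, without WT female 3, without Col6a2-/- female 1 or 2, and without the 2 libraries of highest tenocyte sum, with an adjusted p of up to 0.178.

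At 25 weeks 6 members were called higher in males, Col3a1, Col8a1, Col14a1, Col5a2, Col5a1 and Col4a2, against 2.91% of all tested genes. Without WT male 2, WT male 3 or Col6a2-/- male 1 the count was 3. The call of Col4a2 was lost in 9 of 43 other fits, 6 of them with 1 library left out, with an adjusted p of up to 0.146. In the same males some marker sums of other cells did not overlap between genotypes. How many of all tested genes separate 4 against 4 libraries was not counted, so these sums are descriptions. Tenocyte sums ran from 17.2 to 59.6 TPM in WT and from 61.6 to 85.3 TPM in Col6a2-/-, with no marker called. Macrophage sums ran from 8.18 to 13.6 and from 18.5 to 32.3 TPM, with 2 of 4 markers called higher. Endothelial sums ran from 42.4 to 51.7 and from 58.3 to 68.6 TPM, with 1 of 5 markers called higher. Cartilage sums ran from 1.32 to 3.70 and from 6.97 to 9.98 TPM, with the 1 tested marker not called. The other marker sums overlapped, and the part of these cells was not tested. In 25-week females no member was called by limma, and 1 of all tested genes was called (0.0078%). There 3 of the 25 members (Col3a1, Col5a2 and Col8a1) had an unadjusted p under 0.05, against 4.85% of all tested genes. In those females Col8a1 had a log2 change of 0.78 (SE 0.245, adjusted p = 0.573) and Col3a1 one of 0.78 (SE 0.311, adjusted p = 0.873). The difference of the genotype change between the sexes was tested over both ages: limma called no member and 0.0156% of all tested genes, and no member had an unadjusted p under 0.05, against 1.61% of all tested genes. That average can hide differences of opposite sign at the 2 ages, so the difference was also tested within each age, a test chosen after seeing the data. At 5 weeks limma called no member and 0% of all tested genes, and 2 of the 25 members had an unadjusted p under 0.05, against 1.97% of all tested genes. At 25 weeks limma called no member and 0.0156% of all tested genes, and 5 of the 25 had an unadjusted p under 0.05, against 3.37% of all tested genes. Col4a1 was among both, with a male minus female difference of -0.58 in log2 change at 5 weeks (SE 0.275, adjusted p = 1) and 0.64 at 25 weeks (SE 0.275, adjusted p = 0.991). Calls made in one sex and not in the other are not shown to differ by these tests, which do not show that the sexes were alike either.

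Between males and females over both genotypes, limma called no member, against 3.05% of all tested genes, and 4 of the 25 (Col4a1, Col4a2, Col3a1 and Col26a1) had an unadjusted p under 0.05, against 13.2% of all tested genes. With single libraries left out the count was at most 3, the value without 5-week Col6a2-/- female 2. Col4a1 was 0.31 higher in males as a log2 difference (SE 0.0971, adjusted p = 0.0845) and Col4a2 0.26 (SE 0.0835, adjusted p = 0.103). In WT mice at 5 weeks Col4a1 stood at 33.2 to 57.0 TPM in the 4 females and 84.4 to 97.7 TPM in the 4 males, without overlap. How many of all tested genes separate the sexes in this way was not counted. At 25 weeks the WT ranges overlapped, with 22.7 to 30.9 TPM in females and 14.1 to 25.1 TPM in males.

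Between 5 and 25 weeks most tested collagen genes fell. In WT mice 22 of the 25 tested members were called lower and none higher, against 15.3% of all tested genes called lower and 4.47% called higher. In Col6a2-/- mice all 25 tested members were called lower, against 28.8% of all tested genes called lower and 5.41% called higher. These counts are partly set by the TPM minimum, which 4 members (Col19a1, Col2a1, Col26a1 and Col28a1) reached at 5 weeks only. Of the 13 members under it, tested without a minimum, 6 were called lower and 1 higher in WT, against 5.92% and 1.87% of the 32958 genes in that fit. In Col6a2-/- 6 were called lower and none higher, against 14.3% and 2.45%. Among the 25, Col8a2 was least stable: its call in Col6a2-/- (adjusted p = 0.0489) was lost in 32 of 42 other fits, 24 of them with 1 library left out, and its call in WT in 14 of 42. In Col6a2-/- Col20a1 lost its call in 10 and Col24a1 in 11 of 42. The median log2 change of the members was -1.30 in WT and -1.32 in Col6a2-/-, against -0.08 and -0.14 for all tested genes. Of the members, 14 in WT and 13 in Col6a2-/- had all 8 libraries at 25 weeks below all 8 at 5 weeks, against 2.3% and 1.88% of all tested genes. The TPM minimum partly sets these counts too. They include Col2a1 and Col26a1 in WT, and Col19a1, Col2a1, Col26a1 and Col28a1 in Col6a2-/-, which reached it at 5 weeks only. All signs were kept under the 3 other scalings, where 21 members in WT and 22 in Col6a2-/- were called each time, although the split of all calls in WT moved from 22.6% higher to 50.2% with size factors. The share of all tested genes called each time was not counted. The 2 genotypes share no libraries in these comparisons.

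Some markers of other cells were also called lower at 25 weeks, to be read against the same 15.3% and 28.8% of all tested genes. Of the 4 tested Schwann cell markers, 3 were called lower in WT and 4 in Col6a2-/-, with median log2 changes of -1.11 and -0.99. Of 5 tenocyte markers, Scx and Tnmd were called lower in each genotype, and the summed level ran from 46.6 to 247 TPM in WT at 5 weeks and from 17.2 to 158 TPM at 25 weeks. Of 6 fibroblast markers, Cd34 and Lum were called lower in each genotype. Of 4 macrophage markers 1 was called lower in WT and 4 in Col6a2-/-, and of 5 endothelial markers 2 and 3. Of 3 neuromuscular junction markers 1 was called higher and none lower in WT, and 3 lower in Col6a2-/-. Of 5 pericyte and smooth muscle markers 2 were called lower in WT and 1 in Col6a2-/-. Of 6 muscle fibre markers 1 was called lower in each genotype, as was the 1 tested satellite cell marker. None of the 3 adipocyte markers was called, with median log2 changes of 0.34 and 0.68. Their part in the fall of collagen RNA was not tested.

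On the log2(TPM + 1) scale the type I genes had the largest changes with age. Col1a1 went from a median of 192 TPM to 12.7 TPM in WT (log2 change -3.60, SE 0.348, adjusted p = 1.7e-08) and from 171 to 25.1 TPM in Col6a2-/- (log2 change -2.86, SE 0.348, adjusted p = 3.66e-07). Col1a2 fell by 3.07 on the log2 scale in WT and by 2.51 in Col6a2-/-, and Col3a1 by 2.60 and 2.39. The order differs by ratio of mean TPM. Col2a1 went from a mean of 0.816 TPM at 5 weeks to 0.0166 TPM at 25 weeks in Col6a2-/-, and from 1.26 to 0.0205 TPM in WT. Col26a1 went from 1.53 to 0.1045 TPM in Col6a2-/- and from 1.22 to 0.1565 TPM in WT. The mean at 5 weeks over that at 25 weeks was 14.2 for Col19a1, 8.25 for Col1a1 and 6.15 for Col1a2 in Col6a2-/-, and 1.74, 12.0 and 8.51 in WT. For Col1a1, Col1a2 and Col3a1 no library at 25 weeks reached the lowest at 5 weeks in either genotype. The change with age was not shown to differ between genotypes, with adjusted p of 0.887, 0.887 and 0.965.

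In the other types, Col4a1 fell by 1.46 on the log2 scale in WT and by 1.66 in Col6a2-/-, and Col15a1 by 1.56 and 1.68. Col8a1 fell by 0.96 in WT and by 1.80 in Col6a2-/-. Col12a1 fell by 1.43 and 1.48, and Col14a1 by 1.35 and 1.30. The 3 members not called in WT were Col19a1 (log2 change -0.21), Col20a1 (-0.17) and Col24a1 (-0.18). Col19a1 fell by 2.19 on the log2 scale in Col6a2-/- (SE 0.193, adjusted p = 1.24e-09).

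Ratios between chains were compared within each library, since such a ratio does not depend on how libraries are scaled. The ratio of Col3a1 to Col1a1 bears on the mix of type III and type I collagen RNA. At 5 weeks it ranged from 0.888 to 3.54 in WT (median 1.28) and from 2.28 to 4.88 in Col6a2-/- (median 3.62). The females did not overlap, with 0.888 to 2.01 in WT and 2.35 to 4.04 in Col6a2-/-, while 2 WT males lay within the range of the Col6a2-/- males. The ratio was 2.22-fold higher in Col6a2-/- (two-sided exact permutation test within sex, p = 0.00286, adjusted p = 0.0196 over the 12 ratio tests).

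At 25 weeks the same ratio had medians of 3.03 in WT and 4.73 in Col6a2-/-, a log2 difference of 0.58 that did not pass (exact permutation test, p = 0.0714, adjusted p = 0.107). Without WT female 1 the adjusted p was 0.0335, and without Col6a2-/- male 2 it was 0.0465. With age the ratio rose 2.12-fold in WT (exact permutation test, adjusted p = 0.0196). In Col6a2-/- it was 1.42-fold higher (exact permutation test, adjusted p = 0.0392), a call that was lost in 11 of the 32 fits that leave out 1 library, with an adjusted p of up to 0.103.

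The ratios within type I and within type IV were not called different between genotypes. Col1a1 to Col1a2 had medians of 0.629 in WT and 0.560 in Col6a2-/- at 5 weeks (exact permutation test, adjusted p = 0.478). At 25 weeks the medians were 0.409 and 0.480 (exact permutation test, adjusted p = 0.692). This ratio fell with age to 0.658 of its 5-week value in WT and to 0.768 in Col6a2-/- (exact permutation tests, adjusted p = 0.0196 and 0.0229). The latter was not called without 5-week Col6a2-/- male 1, with an adjusted p of 0.0751. Col4a1 to Col4a2, genes that start head to head and overlap by 22 bases on chromosome 8, stayed between 1.87 and 2.40 in all 32 libraries. This ratio was 1.01-fold between genotypes at each age (exact permutation test, adjusted p = 0.692 for both), and it was lower at 25 weeks, at 0.922 of its 5-week value in WT and 0.920 in Col6a2-/- (exact permutation tests, adjusted p = 0.0196 for both).

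**Figure D4:**
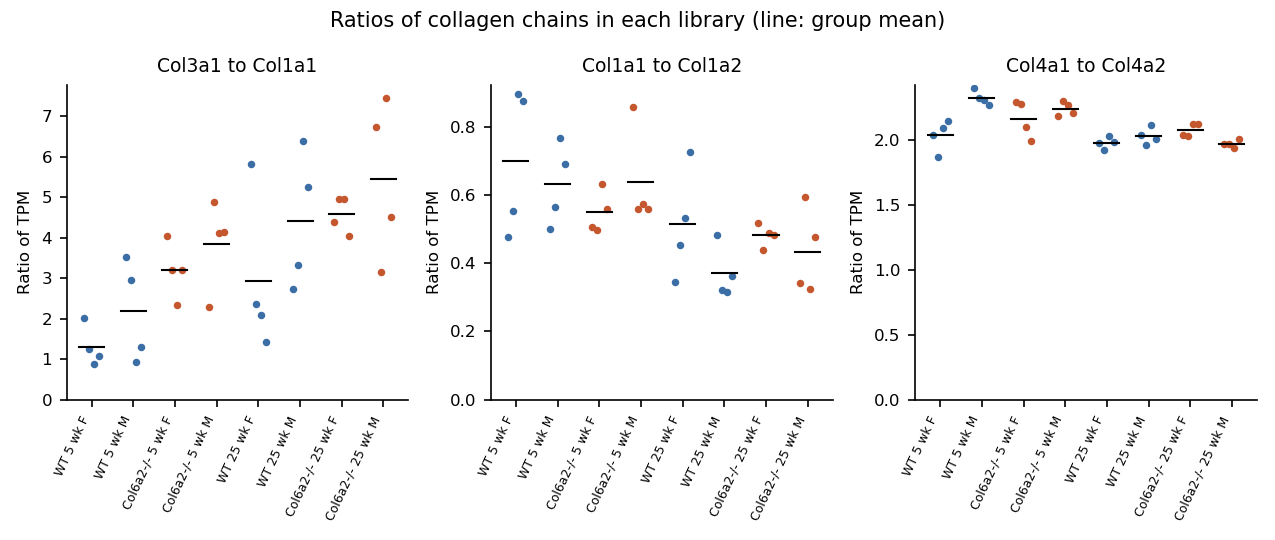
Ratio of TPM of Col3a1 to Col1a1, Col1a1 to Col1a2 and Col4a1 to Col4a2 in each library by group; points are libraries, lines are group means and each axis starts at 0. The Col3a1 to Col1a1 ratio is higher in Col6a2-/- at 5 weeks (median 3.62 against 1.28), and the Col4a1 to Col4a2 ratio stays between 1.87 and 2.40.

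The 13 members below the TPM minimum averaged 0.0301 to 0.635 TPM. They were Col7a1, of the anchoring fibrils of skin (0.635 TPM), the fibrillar Col27a1 (0.557 TPM), and the minor type IV chains Col4a3 (0.532 TPM), Col4a4 (0.338 TPM) and Col4a6 (0.122 TPM). The cartilage FACIT genes Col9a2 (0.0724 TPM), Col9a3 (0.0374 TPM) and Col9a1 (0.0358 TPM), the hexagonal Col10a1 (0.0301 TPM) and the 4 transmembrane genes completed them. Of the latter, Col13a1, a component of the neuromuscular junction, averaged 0.331 TPM, Col23a1 0.408 TPM, Col25a1, which has a part in the innervation of developing muscle, 0.0753 TPM and Col17a1, of the hemidesmosomes of skin, 0.0710 TPM. They were tested in an alternative fit without a TPM minimum on 32958 genes, where changes on the log2(TPM + 1) scale are small by construction. At 5 weeks 4 of the 13 were called higher and 2 lower in Col6a2-/-, against 10.4% and 0.819% of the genes in that fit. With size factors as well, an alternative chosen after seeing the data, 2 were called higher and 3 lower, against 5.98% and 4.53%. Both counts of higher calls include Col10a1, whose calls are no test of its change (below). Col23a1 (log2 change 0.14, SE 0.0679, adjusted p = 0.214) and Col13a1 (0.09, SE 0.0869, adjusted p = 0.553) were not called at 5 weeks, nor were they at 25 weeks (0.10 and 0.15).

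Col10a1, the marker of hypertrophic cartilage, was listed at 0 in all 8 WT libraries at 5 weeks and in all 16 libraries at 25 weeks. In the 8 Col6a2-/- libraries at 5 weeks it was listed at 0.0462 to 0.251 TPM (median 0.1004). The log2 change without the minimum was 0.16, and 0.14 with size factors as well, and limma called it in both fits. The zeros of all other libraries set its small spread, and Col10a1 was picked after its values were seen. These calls are therefore no test of the change, and no p-value is given. The levels of Col10a1 are far below 1 TPM. Col10a1 lies within Nt5dc1 on the opposite strand, and without stated strand use reads of the pair cannot be told apart. Nt5dc1 stood at 1.75 to 3.37 TPM in WT and at 1.59 to 3.19 TPM in Col6a2-/- at 5 weeks. At 25 weeks, where Col10a1 was listed at 0, Nt5dc1 stood at 1.52 to 2.73 TPM in WT and at 2.06 to 3.20 TPM in Col6a2-/-. The part of Nt5dc1 reads in the level of Col10a1 was not tested. Of the cartilage markers, Matn1 was listed at 0 in all 32 libraries and Acan averaged 0.181 TPM. Of the 4, Comp alone was tested, and it was not called.

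Of the 3 minor type IV chains, Col4a4 and Col4a6 were called lower without the minimum. These chains form the networks of the kidney glomerulus and of other specialised basement membranes, and Col4a3 and Col4a4 start 71 bases apart on opposite strands of chromosome 1. Col4a4 ranged from 0.366 to 0.798 TPM in WT at 5 weeks and from 0.188 to 0.505 TPM in Col6a2-/-, where each library was below the WT mean of its sex (log2 change -0.25, SE 0.0597, adjusted p = 0.00695 without the minimum). Col4a6 ranged from 0.137 to 0.357 TPM in WT and from 0.0353 to 0.129 TPM in Col6a2-/-, without overlap (log2 change -0.17, SE 0.0468, adjusted p = 0.0183). Col4a3 ranged from 0.521 to 1.28 TPM in WT and from 0.333 to 0.688 TPM in Col6a2-/- (log2 change -0.27, SE 0.0887, adjusted p = 0.0516). With size factors as well, these were the 3 members called lower, with adjusted p of 0.00983, 0.000477 and 0.0142.

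**Figure D5:**
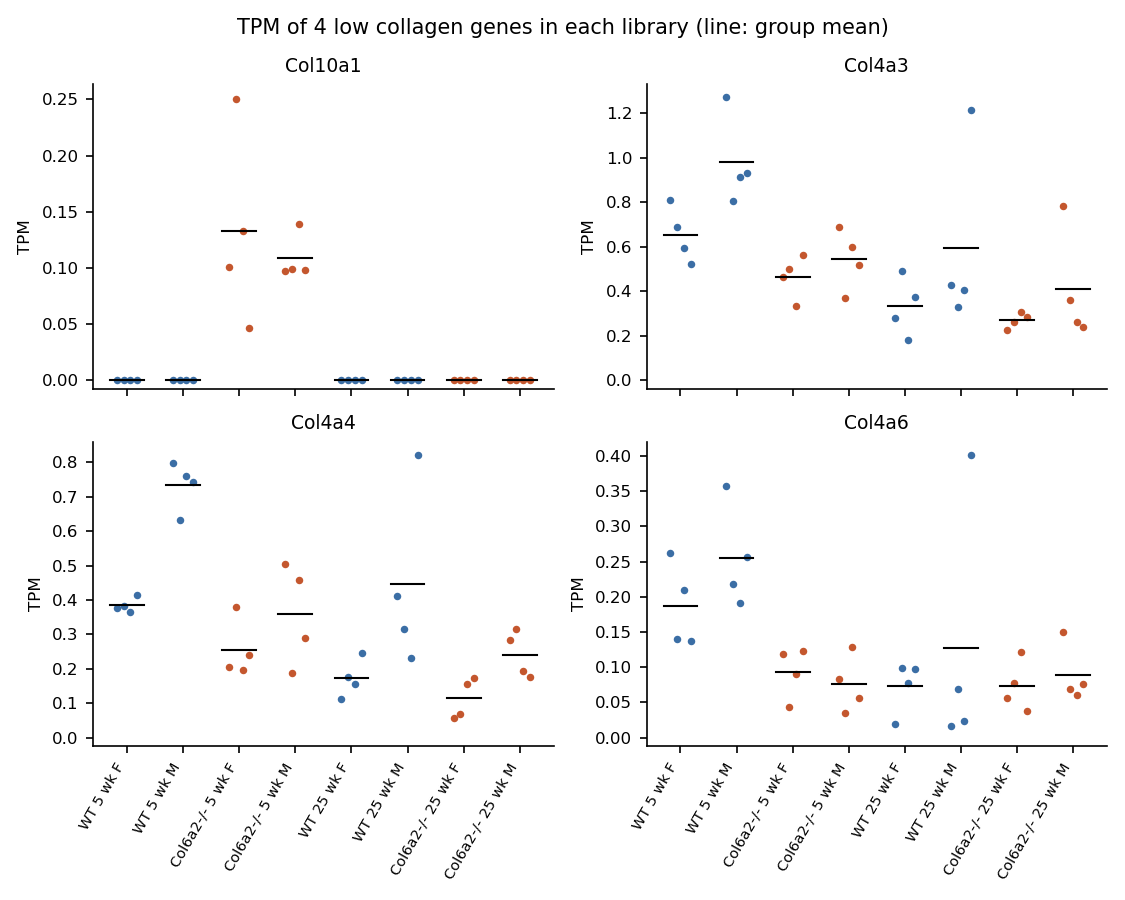
TPM of the low collagen genes Col10a1, Col4a3, Col4a4 and Col4a6 in each of the 32 libraries by group; points are libraries and lines are group means. Col10a1 is listed above 0 in the 5-week Col6a2-/- libraries alone, at 0.0462 to 0.251 TPM, and Col4a6 at 5 weeks does not overlap between genotypes.

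Among the other low members, Col27a1, a fibrillar collagen of cartilage and other tissues, was called higher at 5 weeks without the minimum (log2 change 0.31, SE 0.0794, adjusted p = 0.0105), as were Col7a1 (0.25, SE 0.0695, adjusted p = 0.0198) and Col25a1 (0.08, SE 0.0195, adjusted p = 0.0104). With size factors as well, Col27a1 was still called (adjusted p = 0.0313), and Col7a1 (adjusted p = 0.0874) and Col25a1 (adjusted p = 0.0604) were not. Col7a1 had the opposite sign with age in WT: it ranged from 0.294 to 0.537 TPM at 5 weeks and from 0.577 to 0.995 TPM at 25 weeks in WT, without overlap. That rise had a log2 change of 0.29 (SE 0.0695, adjusted p = 0.00928). In Col6a2-/- the ages overlapped, with 0.486 to 1.12 TPM at 5 weeks and 0.411 to 0.954 TPM at 25 weeks, and Col7a1 was not called (log2 change 0.09, SE 0.0695, adjusted p = 0.422).

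Genes that fold, process and bind collagen were counted from lists that hold no member. Of 17 tested genes for procollagen folding and modification, 7 were called higher at 5 weeks and 2 at 25 weeks in Col6a2-/-, with none lower, against 23.2% and 4.47% of all tested genes called higher. Plod2, which hydroxylates telopeptide lysines for cross-linking, had a log2 change of 0.81 at 5 weeks (SE 0.144, adjusted p = 0.000151) and 0.55 at 25 weeks. Ppib, a prolyl isomerase of the endoplasmic reticulum, had changes of 0.49 and 0.44. The other 5 called at 5 weeks were Plod1, Plod3, P3h1, P4hb and Colgalt1.

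Of 10 tested genes for propeptide removal and cross-linking, 3 were called higher at 5 weeks and 4 at 25 weeks, beside the same 23.2% and 4.47%. Loxl1, a lysyl oxidase-like enzyme best known from elastic fibres, had log2 changes of 0.79 (SE 0.144, adjusted p = 0.000212) and 0.65 (SE 0.144, adjusted p = 0.0087). Pcolce, which enhances cleavage of the C-propeptide, had changes of 0.55 and 0.63. Bmp1, a C-propeptidase, was called at 5 weeks, and Loxl2 and Loxl3 at 25 weeks. Of 7 tested receptors, the fibroblast integrin chain Itga11 alone was called at each age (log2 change 0.48, adjusted p = 0.0235 and 0.52, adjusted p = 0.0477). With age in WT, 12 of the 17, 8 of the 10 and 4 of the 7 were called lower, and 13, 7 and 4 in Col6a2-/-, with none higher, against 15.3% and 28.8% of all tested genes called lower.

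Markers of some other cells were called between genotypes too. Of 6 fibroblast markers, 5 were called higher at 5 weeks and 4 at 25 weeks, with Pdgfra, Lum and Dpt at both, against 23.2% and 4.47% of all tested genes called higher. Their sum ranged from 342 to 553 TPM in WT and from 304 to 775 TPM in Col6a2-/- at 5 weeks, and from 243 to 437 TPM and 355 to 578.5 TPM at 25 weeks. All 4 macrophage markers were called higher at both ages, and their sum ranged from 15.6 to 29.0 TPM in WT and from 16.9 to 65.8 TPM in Col6a2-/- at 5 weeks. Of 6 muscle fibre markers, Ckm and Myh4 were called lower at 5 weeks, against 2.14% of all tested genes called lower. Of 3 neuromuscular junction markers 2 were called higher at 5 weeks, and of the 5 pericyte and smooth muscle markers and the 3 adipocyte markers none was called at either age. The epidermal genes Krt5 and Krt14 were listed at 0 in all 32 libraries. The part of these cells in the collagen results was not tested, and in whole muscle more cells of a type and more RNA per cell cannot be told apart.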

How the data were processed

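RNA of quadriceps cryosections was sequenced in 32 libraries, 1 per mouse, after a limit on RNA quality and with a TruSeq RNA kit, per the labels' protocols. The submitters' processing notes name FastQC, MultiQC, Trimmomatic, HISAT2, SAMtools and StringTie, and the builds GRCm38 and mm10. Neither the annotation nor whether reads were counted by strand is given in the sources used here. The deposited tables list coverage (a signal not scaled for depth), FPKM and TPM for each gene, all computed by the authors, per the file headers. No counts were used. Tests used the deposited TPM. The deposited FPKM checked Col6a2, and with coverage gave a relative depth, as the ratio shared by 1756 to 2403 genes of a library. Depth limits low genes most. That depth served only to compare libraries, since it is higher than a run of the labelled instrument would be thought to give. The 38 members have the same start and end in GENCODE M21 (GRCm38).

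Here log2(TPM + 1) was fitted with limma 3.58.1 (lmFit, eBayes with trend) in R 4.3.3 with 8 group means, 11 contrasts and both sexes weighted equally. Genes needed at least 1 TPM in at least 4 libraries. Tests were two-sided, p-values were adjusted by Benjamini-Hochberg over 12817 genes, and the threshold was 0.05. The fit was tested on simulated data. Ratios of chains were compared by exact permutation within sex (4900 arrangements). The alternatives were other pseudocounts, TPM minimums and scalings, array weights, a replicate block, and leaving out each library. The rule gave full statistics to members called in a genotype contrast and to the 2 most abundant of each type, and levels to the others. Statistics of further members, such as Col5a3, Col4a5, Col7a1, Col27a1, Col4a3, Col4a4, Col4a6 and Col10a1, were added after their values were seen. The members and lists were chosen with earlier results of these data known. Replicates were separate mice, and no 2 libraries correlated above 0.984 across genes, so each counted once. Tables and plots were made with Python 3.11.15, numpy 2.4.6, pandas 2.3.3, matplotlib 3.10.9 and the R package data.table (version 1.17.8).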

Additional observations from a re-analysis of the deposited data

Results flagged for a closer look

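Within groups of 4, single libraries stood apart from the other 3 in 9 of the 216 sets tested (19 members and 8 sums in each of the 8 groups), by Dixon's test at 95%, a test that chance passes in about 1 in 20. In 25-week Col6a2-/- females, replicate 4 had 10.6 TPM of Col12a1 (others 4.47 to 5.11), a FACIT sum of 29.9 TPM (others 15.1 to 17.4) and a hexagonal network sum of 7.46 TPM (others 4.08 to 4.49). In 25-week Col6a2-/- males, replicate 1 had 80.8 TPM of Col1a2 (others 46.8 to 52.4), a fibrillar sum of 338 TPM (others 208 to 218) and a sum over all 38 members of 436.5 TPM (others 287 to 302). In 25-week WT males, replicate 1 had 2.84 TPM of Col14a1 (others 1.56 to 1.71), and replicate 4 had 0.721 TPM of Col19a1 (others 0.159 to 0.222) and 0.30 TPM of Col23a1 (others 0.167 to 0.182).

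The genotype change of Col19a1 differed between ages by -1.98 on the log2 scale (limma, adjusted p = 5.39e-05). The gene passed the TPM minimum only through the 5-week Col6a2-/- group, in which it was high.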

How the results depend on the processing

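Of the 82 pairs of a member and a comparison in which it was called, 61 kept their call in each other fit that gave a value and none changed sign. The number of such fits was 43, or 42 for 17 of the pairs (10 of the 61), whose genes did not reach 5 TPM in 4 libraries and so left the fit with that minimum. Counts of called members moved by over 1.5 times as follows. Without a TPM minimum, genotype by age gave 2, 5-week males 4 and sex 1. Sex gave 2 with size factors, with a constant sum of genes other than mitochondrial and Rn7s, and with quantile normalization. The constant sum gave 5 in 5-week males, and quantile normalization 2 for genotype by age. With array weights there were 8 at 25 weeks (12 in males of that age and 1 in females), 4 in 5-week males and 2 for genotype by age. Among alternatives chosen after seeing the data, leaving out 5-week Col6a2-/- females 2 and 4 gave 2 for genotype by age, 5 in 5-week males and 10 in 25-week males. Leaving out 5-week WT male 3 and Col6a2-/- female 2, which have the highest tenocyte sums, gave 3 in 5-week females, 4 in 5-week males and 3 for sex. No minimum with size factors gave 2 for genotype by age, 4 in 5-week males and 2 for sex.

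Leaving out each library in turn gave 9 to 15 called at 5 weeks, 4 to 6 at 25 weeks, 1 to 2 for genotype by age, 3 to 16 in 5-week females, 2 to 4 in 5-week males, 3 to 9 in 25-week males, 0 to 3 for sex, 21 to 22 for age in WT and 22 to 25 for age in Col6a2-/-. The log2 ratio of Col3a1 to Col1a1 ranged from 0.44 to 0.78 for genotype at 25 weeks and from 0.39 to 0.63 for age in Col6a2-/-. With TPM + 1 the latter was 0.47 (exact permutation test, adjusted p = 0.0567). The log2 ratio of Col1a1 to Col1a2 ranged from -0.0089 to 0.17 for genotype at 25 weeks and from -0.46 to -0.30 for age in Col6a2-/-, and that of Col4a1 to Col4a2 from -0.0043 to 0.036 for genotype at 5 weeks. The causes were not tested.

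Replicate numbers were not taken to pair the mice: the deviations of same-numbered libraries correlated by -0.0612 to 0.234, over 0.1 in 8 of 16 pairs, and 8 of 16 correlated best with their own number. With the replicate block, 11 members were called at 5 weeks, 6 at 25 weeks, 22 for age in WT and 24 for age in Col6a2-/-. Precision is limited by 4 mice per group and, for members under 1 TPM, by depth.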
